A study of Mus musculus with 10 samples.

Results

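Apolipoproteins and the machinery that loads lipid onto them were examined in the jejunum of newborn mice. The set holds 10 of the 24062 gene symbols counted: Apoa1, Apoc3, Apoa4 and Apoa5, which lie side by side on chromosome 9, Apoe, Apoc1 and Apoc2, which with Apoc4 form a cluster on chromosome 7, and Apob, Mttp and Apom, which lie alone. They were chosen by symbol, and all 10 passed the filter on low counts (a minimum of 5 in any 1 library). Jejunum was taken at postnatal day 5 from C57BL/6 mice of 2 genotypes, with 5 libraries in each. WT mice were labelled wild type. KSR23 mice expressed interleukin-23 (IL-23), a cytokine of the Il23a and Il12b subunits, in the skin, where a Cre recombinase under the keratin 14 promoter switched on an IL-23 cassette, so the cassette was driven by a promoter of keratinocytes and not of the jejunum. The labels give no other allele, treatment or sex. The study calls the libraries biological replicates, the labels do not say whether each came from a separate mouse, and p-values measure the spread between libraries. Whole jejunum holds many cell types, and fewer cells of a type cannot be told apart from less RNA per cell.

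Enterocytes of the suckling intestine package milk fat as chylomicrons, large particles of triglyceride that enter the lymph. Apolipoprotein B is the scaffold of each particle, and microsomal triglyceride transfer protein (gene Mttp) loads lipid onto it as it is made. Apolipoproteins A-I and A-IV join the surface of the particle, and the small C apolipoproteins and apolipoprotein E exchange between particles and govern how lipases and receptors handle them.

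Of the 10 genes, 5 were lower in KSR23 than in WT and 0 were higher at an adjusted p under 0.05 (likelihood ratio test of edgeR, Benjamini-Hochberg adjustment over 17632 genes). At an unadjusted p under 0.05, 1 gene (Mttp) was higher by this test and by the quasi-likelihood test, and 0 by DESeq2. By these tests 7, 5 and 6 were lower, with Apoa4 and Apoe added to the 5 by the first test. Shares of all genes at an unadjusted p are not given here or below, so such counts have no background beside them. Apoc1, Apoa5, Apom and Apoc3 fell by 2.66 to 4.94 on the log2 scale, and Apoc2 by 1.01. Apoa1, Apoa4, Apoe, Apob and Mttp did not pass. Over all genes tested, 8.76% were called lower and 9.73% higher. The stricter quasi-likelihood F test called 4 of the 10 lower, all but Apoc2, against 6.91% of all genes. Of all genes, 2.68% were called lower with a log2 fold change under -2, and 4 of the 10 were among them. The median log2 fold change of all genes tested was 0.03. The plot of counts by library shows the 10 genes.

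**Figure D1:**
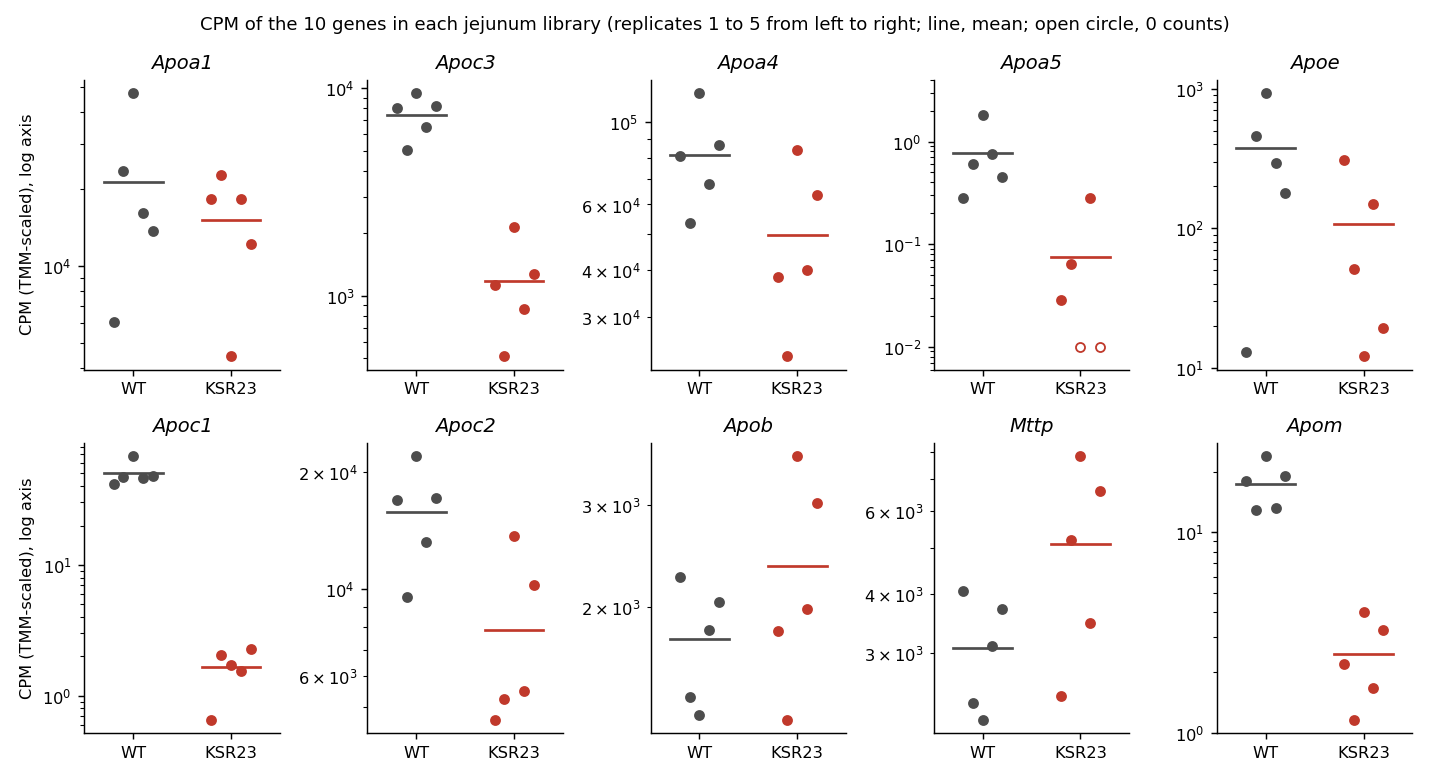
CPM (counts per 1e6, scaled by TMM factors, log axis with its own range in each panel) of the 10 genes in 5 WT (grey) and 5 KSR23 (red) libraries, replicates 1 to 5 from left to right, with the mean as a line. Apoc3, Apoc1 and Apom do not overlap between the groups. Open circles in the Apoa5 panel are libraries with 0 counts, drawn at the foot of the axis.

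The libraries held 25.5 to 32.0 M counts in genes in WT and 31.2 to 60.9 M in KSR23, where M stands for 1e6. CPM are counts per 1e6 of a library's scaled total, and 3 counts corresponded to 0.0427 to 0.119 CPM. Because no molecular identifiers were used, such floors cover counting error only. Il23a had 1 to 14 counts in WT and 8 to 34 in KSR23, and Il12b had 0 to 5 and 9 to 40. Il22, a cytokine induced by IL-23, was nearly absent from WT (at most 1 count per library) and reached 137 to 329 counts in KSR23, and it and the other genes of a list of 5 IL-22 response genes were all called higher. The libraries labelled replicates 4 and 5 stood apart, because each was the highest or lowest of its group at 8.48% to 18.3% of 9415 autosomal genes, against 46.1% to 75.5% for replicates 1 to 3. Results from replicates 1 to 3 alone are therefore given as well. Reads of genes rich in G and C also varied together between libraries. The 570 genes with at least 58% GC lay above the mean over libraries by 0.65 (log2, median) in KSR23 replicate 1 and below it by 1.07 in KSR23 replicate 3, and a fit corrected for GC content and transcript length is given beside the results.

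Summed over the 10 genes, the share of all counts was 13.3% ± 2.84 in WT (SD, n = 5) against 7.76% ± 1.25 (SD, n = 5) with IL-23. WT replicates 1 to 5 gave 12.4, 10.6, 18.0, 11.8 and 13.4%, and KSR23 replicates 7.72, 5.81, 9.20, 7.69 and 8.37%. Every KSR23 library lay below every WT library in this share of raw totals. On the scaled CPM used by the tests the summed levels overlapped, with KSR23 replicates 3 and 5 above WT replicate 2. Apoa4 was the most abundant gene in all 5 WT libraries, and Reg3b, an antimicrobial lectin, in all 5 KSR23 libraries, where it reached 45622 to 128534 CPM from 28.8 to 758 CPM in WT. A share of counts falls when another gene takes more of the library, so the tests used scaled totals.

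Levels of different genes were compared as RPKM, CPM per kilobase of annotated exons. Apoa4 led in WT with 44964 ± 13524 RPKM (SD, n = 5). Apoc2 (19386 ± 5719) and Apoa1 (17246 ± 12803) followed, and these neighbours in the order did not differ beyond their spread. Apoc3 stood at 7335 ± 1691 RPKM. Mttp (497 ± 133), Apoe (176 ± 165) and Apob (127 ± 29.2) came next, and Apoe overlapped both. Apoc1 had 67.4 ± 13.6 RPKM, Apom 17.2 ± 4.48 and Apoa5 0.307 ± 0.237. In KSR23 Apoa4 still had the highest mean (27433 ± 13072 RPKM). Its spread overlapped those of Apoa1 (12230 ± 5691) and Apoc2 (9655 ± 4875), which still overlapped each other. Apoc3 (1165 ± 599) had come down to the level of Mttp (824 ± 356).

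Apoc3 encodes apolipoprotein C-III, an inhibitor of lipoprotein lipase and of particle uptake. The gene lies on the minus strand at chr9:46232933-46235636 (build mm10, positions from GENCODE M21). WT replicates 1 to 5 reached 7981, 5022, 9476, 6500 and 8208 CPM, and KSR23 replicates 1124, 510.2, 2137, 863 and 1270 CPM. The highest KSR23 library lay below the lowest WT library. The mean fell from 7437 ± 1715 to 1181 ± 607 CPM (SD, n = 5). This was a fitted log2 fold change of -2.66 ± 0.36 (SE), at an adjusted p of 3e-10 and a quasi-likelihood adjusted p of 0.000682. With the GC and length correction the log2 fold change was -1.97 (adjusted p = 1.93e-06).

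Apoa5, at the end of the same cluster (chr9:46268633-46271919), encodes apolipoprotein A-V, an activator of triglyceride clearance that is best known from the liver. It was close to the limit of detection, with 9, 17, 49, 26 and 12 counts in WT replicates 1 to 5. KSR23 libraries had 2, 2, 0, 16 and 0 counts, so 4 of the 5 were at or below 3 counts. KSR23 replicate 4, at 0.283 CPM, overlapped WT replicate 1, at 0.279 CPM. The mean fell from 0.775 ± 0.598 to 0.0753 ± 0.119 CPM (SD, n = 5). Fitted on the log2 scale, the difference was -3.21 ± 0.90 (SE), at an adjusted p of 0.00506 and 0.0376 by the quasi-likelihood test. The value was -4.77 without KSR23 replicate 4, and it stayed called in each of the 10 fits that left out 1 library.

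Apoa1 and Apoa4, which flank Apoc3, did not pass the test. Apoa4 encodes the surface apolipoprotein most characteristic of intestinal fat absorption, and lies at chr9:46240696-46243459. WT replicates 1 to 5 reached 80646, 53642, 119274, 68018 and 86466 CPM, and KSR23 replicates 38322, 23537, 83691, 39995 and 63414 CPM. Of the KSR23 libraries 3 lay below every WT library and 2 within the WT range. Its log2 fold change, -0.71 ± 0.36 (SE), had an adjusted p of 0.161, and it was -0.41 (adjusted p = 0.626) with the GC and length correction. It passed when libraries were scaled by their totals alone (-0.82, adjusted p = 0.0370) and without KSR23 replicate 3 (-0.98, adjusted p = 0.0240).

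Apoa1 (chr9:46228580-46230466), the main protein of high-density lipoprotein, spread widely within both groups. WT libraries had 6042, 23425, 47356, 16093 and 13664 CPM, and KSR23 libraries 18247, 22590, 4434, 18169 and 12140 CPM. The groups overlapped almost throughout, and the log2 fold change of -0.50 ± 0.52 (SE) had an adjusted p of 0.567. It was 0.030 without WT replicate 3 and 0.10 with the GC and length correction, so no direction is given.

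In the cluster on chromosome 7, Apoc1 changed most of the 10 genes. It encodes apolipoprotein C-I, which slows receptor uptake of remnants. The gene lies at chr7:19689481-19692660, minus strand. WT libraries had 41.9, 47.0, 67.7, 46.1 and 48.1 CPM, and KSR23 libraries 0.654, 2.06, 1.71, 1.54 and 2.26 CPM, which rest on 43 to 87 counts. The lowest WT library was far above the highest KSR23 library. The mean was 50.2 ± 10.1 in WT and 1.65 ± 0.622 in KSR23 (SD, n = 5), 30.7-fold lower by the fitted log2 fold change of -4.94 ± 0.35 (SE, adjusted p = 1.09e-30, quasi-likelihood adjusted p = 1.06e-05). The corrected value was -4.25 (adjusted p = 2.88e-35).

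Apoc4, between Apoc1 and Apoc2 but not in the set of 10, moved the same way. Its product, apolipoprotein C-IV, is a minor protein of triglyceride-rich particles. WT libraries had 14.8, 13.8, 17.7, 14.9 and 13.9 CPM and KSR23 libraries 0.526, 0.613, 2.27, 0.514 and 1.21 CPM, with no overlap. The fitted difference was -3.90 ± 0.42 on the log2 scale (SE, adjusted p = 1.07e-14), and -3.94 after correction.

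Apoc2 (chr7:19671579-19677941, minus strand) encodes the cofactor that lipoprotein lipase needs. WT libraries had 16908, 9553, 21953, 13242 and 17148 CPM, and KSR23 libraries 4626, 5225, 13700, 5467 and 10228 CPM. Of the KSR23 libraries 3 lay below every WT library, and replicates 3 and 5 reached into the WT range. The log2 fold change of -1.01 ± 0.36 (SE) passed at an adjusted p of 0.0356, and the call was lost with the quasi-likelihood test (adjusted p = 0.0839), with the correction (-0.34, adjusted p = 0.555) and in 7 of the 10 fits without 1 library (adjusted p up to 0.130). Apoc2 shares 77.5% of its 75-base stretches with an annotated Apoc4-Apoc2 read-through gene on the same strand, which has no row of its own in the counts.

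Apoe, at the other end of the cluster (chr7:19696109-19699188, minus strand), encodes the ligand by which remnants bind receptors and is also made by macrophages and glia. WT libraries had 13.1, 458, 934, 293 and 180 CPM and KSR23 libraries 307, 51.3, 12.1, 150 and 19.2 CPM. The highest value was 71.3-fold the lowest in WT, the widest spread of the 10 genes there, and 25.4-fold the lowest in KSR23. The groups overlapped, and the log2 fold change of -1.80 ± 0.89 (SE) had an adjusted p of 0.166. Apoe was called lower without WT replicate 1 (-2.11, adjusted p = 0.0485) and without KSR23 replicate 1 (-2.63, adjusted p = 0.0376), while the value was -1.13 (adjusted p = 0.470) without WT replicate 3 and -1.37 (adjusted p = 0.230) after correction.

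Promoter windows of RefSeq (build GRCm38.p6) were found for 8 of the 10 genes, 11 windows in all, and Apoc3 and Apoc1 had none. The 250 bases before each start were searched on both strands for CAAAGTNCA (an HNF4 motif), TTCNNNGAA (the STAT motif) and GTTAATNAT (an HNF1 motif), which occur in 1.19%, 7.02% and 0.737% of 32851 windows. Of the genes with a window only Apoa4 held a match, CAAAGTTCA, 182 bases before the RefSeq start at chr9:46240844. That start lies inside the gene as annotated by GENCODE M21, which begins at chr9:46240696. No window of the genes held the other motifs. Because these letters are those of HNF4 factors, whose genes are described further on, the stretch around the match is shown, with the match in capitals, at chr9:46240594-46240695, plus strand. Stretches before Apoa5 (chr9:46268358-46268607, plus strand) and Apoc2 (chr7:19677942-19678082, minus strand), both called lower, are shown as called genes with a window and no match. Bases within annotated exons were left out.
Apoa4: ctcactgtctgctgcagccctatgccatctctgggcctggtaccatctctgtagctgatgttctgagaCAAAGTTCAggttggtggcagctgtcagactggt
Apoa5: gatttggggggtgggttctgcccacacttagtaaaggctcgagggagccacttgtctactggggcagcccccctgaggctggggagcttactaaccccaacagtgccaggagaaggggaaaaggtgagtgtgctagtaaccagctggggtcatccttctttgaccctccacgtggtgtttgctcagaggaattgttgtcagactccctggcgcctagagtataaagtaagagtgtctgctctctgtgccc
Apoc2: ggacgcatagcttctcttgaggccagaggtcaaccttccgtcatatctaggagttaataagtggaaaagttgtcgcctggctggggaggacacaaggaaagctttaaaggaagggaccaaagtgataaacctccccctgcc

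To place the clusters in their surroundings, the 5 tested genes on each side were compared, taken by order of position at any distance. Over all genes, 8.76% were called lower and 9.73% higher. Around Apoa1 to Apoa5, 1 of the 10 neighbours passed, Pcsk7, a proprotein convertase gene that was higher (log2 fold change 1.05, adjusted p = 0.00526), and their median was 0.03. Around Apoe to Apoc2, 1 of 10 passed, Zfp296, a zinc finger gene that was also higher (2.76, adjusted p = 0.00386), and their median was 0.56. The genes that adjoin the clusters did not pass: Sik3 had a log2 fold change of -0.17, Zpr1 0.26, Clptm1 0.83 and Tomm40 0.07. Within each cluster, called and uncalled genes stood next to each other, though on chromosome 7 every fitted value was below 0. There the uncalled Apoe had a larger fitted fall (-1.80 ± 0.89, SE) than the called Apoc2 (-1.01 ± 0.36, SE). A gene that was not called is therefore not shown to be unchanged.

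**Figure D2:**
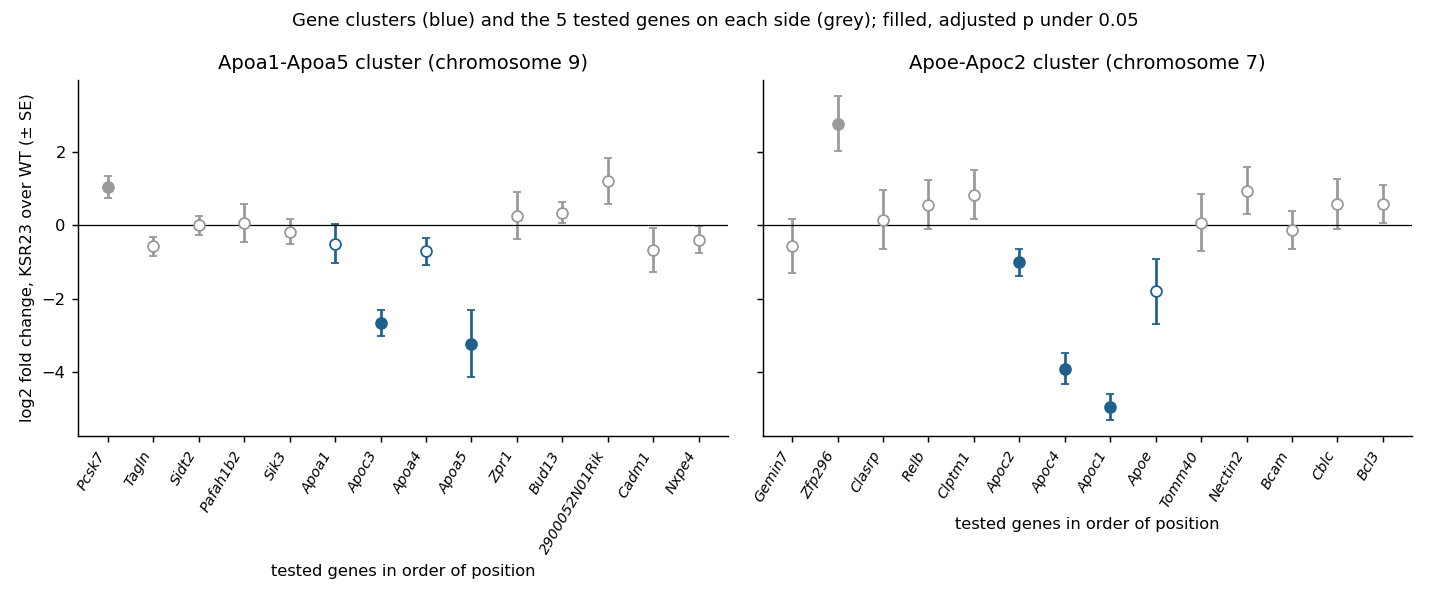
Log2 fold change, KSR23 over WT, with its standard error, for the genes of both clusters (blue) and the 5 tested genes on each side (grey), in order of position and not to scale. Filled points passed an adjusted p under 0.05. Apoc3 and Apoa5 on chromosome 9 and Apoc2, Apoc4 and Apoc1 on chromosome 7 were called lower, and the only called neighbours, Pcsk7 and Zfp296, were higher.

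Comparing genes within a library removes its scaling. For each 100 counts of Apoa4, WT replicates 1 to 5 had 9.90, 9.36, 7.94, 9.56 and 9.49 counts of Apoc3. KSR23 libraries had 2.93, 2.17, 2.55, 2.16 and 2.003. The ratio varied little within a group and did not overlap between them. Apom did the same, with 0.0195 to 0.0242 counts per 100 of Apoa4 in WT and 0.00416 to 0.00572 in KSR23. For each 100 counts of Apoc2, Apoc1 had 0.248 to 0.492 in WT and 0.0125 to 0.0395 in KSR23, and Apoc4 had 0.0806 to 0.144 and 0.00939 to 0.0165. Apoc2 per 100 Apoa4 ran from 17.8 to 20.97 in WT and was 12.1, 22.2, 16.4, 13.7 and 16.1 in KSR23 replicates 1 to 5. The ranges overlapped through KSR23 replicate 2 alone, which lay above every WT library, while the other KSR23 libraries lay below every WT library. Apoc3 relative to Apoa4, and Apoc1 relative to Apoc2, were thus lower in every KSR23 library than in any WT library, while the proportion of Apoc2 to Apoa4 was not fully separated. Apoa4 and Apoc2 were taken as references after the spread of Apoa1 and Apoe was seen. Apoc3 per 100 Apoa1 ran from 20.0 to 132 in WT and from 2.26 to 48.2 in KSR23, and Apoc1 per 100 Apoe from 7.25 to 320 and from 0.213 to 14.1, so both overlapped.

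**Figure D3:**
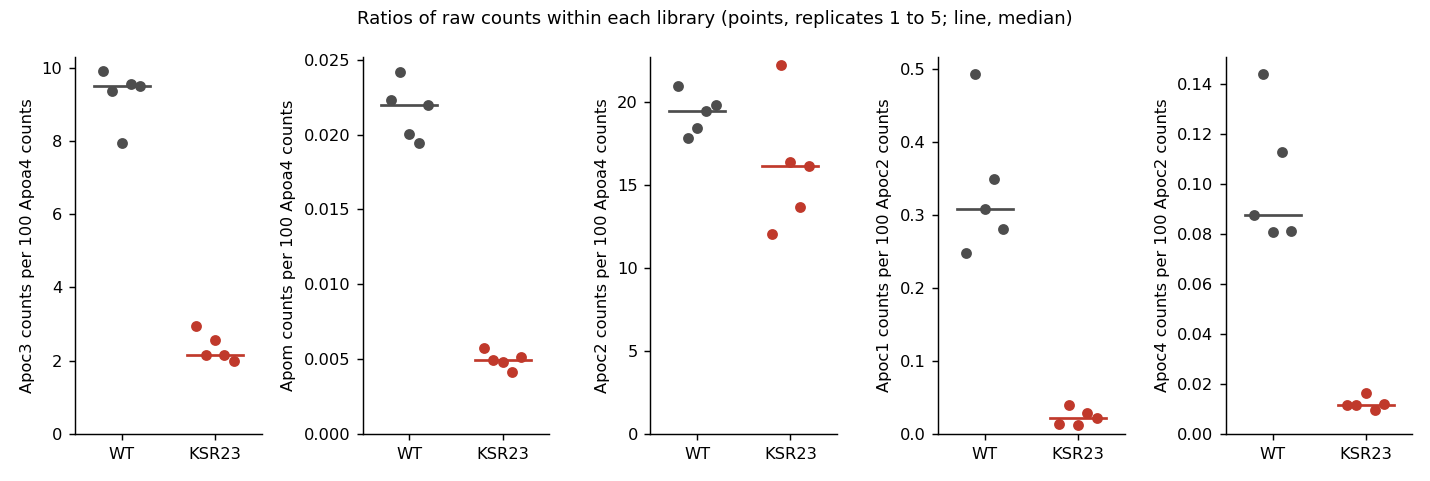
Raw counts of one gene per 100 counts of another in each library (linear axes from 0), with WT in grey, KSR23 in red and the median as a line. Apoc3 and Apom per Apoa4 and Apoc1 and Apoc4 per Apoc2 do not overlap between the groups, and Apoc2 per Apoa4 does.

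Among the genes that stand alone, Apom fell. It encodes apolipoprotein M, a carrier of sphingosine-1-phosphate in high-density lipoprotein, and lies at chr17:35128997-35132050, minus strand. WT libraries had 18.0, 13.0, 23.9, 13.2 and 19.0 CPM and KSR23 libraries 2.19, 1.16, 4.01, 1.66 and 3.25 CPM, with no overlap. The mean went from 17.4 ± 4.54 to 2.46 ± 1.16 CPM (SD, n = 5), 7.13-fold lower by the fitted log2 fold change of -2.83 ± 0.38 (SE, adjusted p = 1.23e-10, quasi-likelihood adjusted p = 0.000342). It was -2.28 after correction (adjusted p = 1.29e-08).

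Apob (chr12:7977648-8016835) and Mttp (chr3:138089854-138144968, minus strand), which build the particle, did not pass in either direction. Apob had 2256, 1403, 1305, 1823 and 2038 CPM in WT and 1820, 1280, 3632, 1983 and 3024 CPM in KSR23, so the ranges overlapped, with 2 KSR23 libraries above every WT library and 1 below. The log2 fold change of Apob, 0.41 ± 0.32 (SE), had an adjusted p of 0.415. Mttp had 4067, 2357, 2174, 3112 and 3718 CPM in WT and 2437, 5210, 7821, 3471 and 6620 CPM in KSR23, and 3 KSR23 libraries lay above every WT library. The fitted log2 value for Mttp was 0.73 ± 0.34 (SE, adjusted p = 0.133), and it was called higher only without KSR23 replicate 1 (0.95, adjusted p = 0.0151). With the correction both values were nearer 0 (0.10 for Apob and 0.38 for Mttp). WT held 54.8 to 60.02 Apob counts per 100 of Mttp, and KSR23 24.6 to 74.7.

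Of all genes, 6.99% had CPM in KSR23 below every WT library, and of the 10 genes Apoc3, Apoc1 and Apom were in this class. In replicates 1 to 3 alone, 4 of the 10 were called lower (Apoc1, Apoa5, Apom and Apoc3) against 1.35% of 17243 genes tested. The quasi-likelihood test on those 6 libraries called Apoc1 alone (-5.12, adjusted p = 0.0116), with adjusted p of 0.135 for Apoc3, 0.0727 for Apom and 0.159 for Apoa5. In the fit corrected for GC content and length, the same 4 genes were called lower against 9.44% of 17456 genes.

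The exons of Apoe held 59.5% GC, the highest of the set, those of Apoa4 57.6% and of Apoa1 56.8%, and those of Mttp 45.9% and Apob 43.5%. Apoe and Apoa1 were lowest in WT replicate 1 among WT and in KSR23 replicate 3 among KSR23, the libraries in which genes with at least 58% GC were lowest (-0.94 and -1.07, log2). Mttp and Apob were highest of all in KSR23 replicate 3. Apoc1, with 54.9% GC, was also lowest in WT replicate 1 among WT, where its range was 1.62-fold, but among KSR23 it was lowest in replicate 1, where the GC-rich genes were highest. Apoa4, Apoc2 (56.5% GC) and Apoc3 (56.0% GC) did not follow this order, since each was highest in KSR23 replicate 3 among KSR23 and lowest in WT replicate 2 among WT. The part of this skew in the levels of single genes was not tested beyond the corrected fit.

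**Figure D4:**
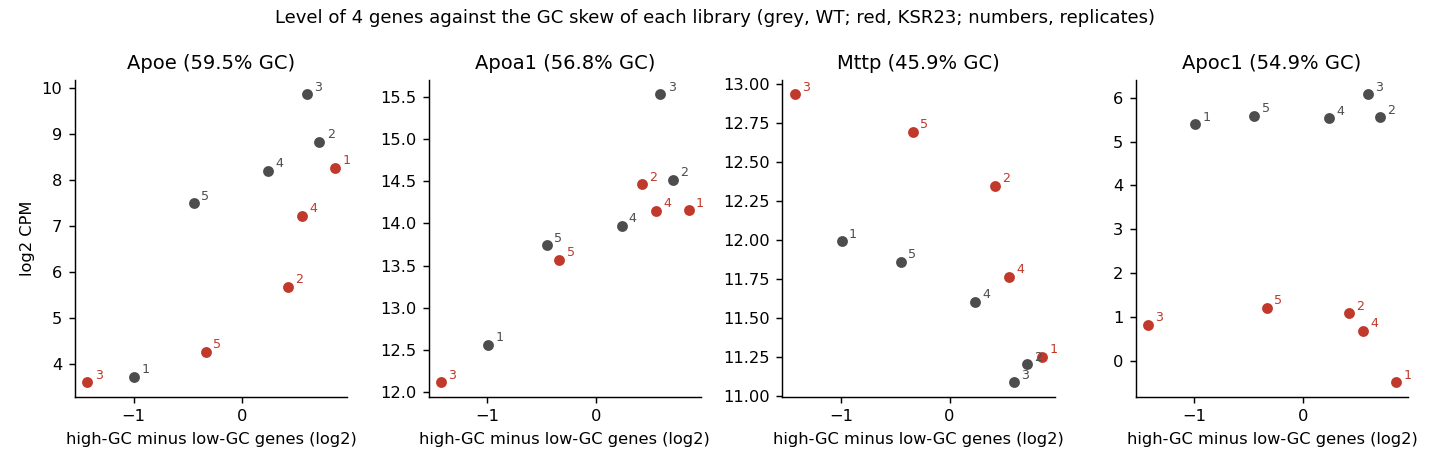
Log2 CPM of Apoe, Apoa1, Mttp and Apoc1 in each library against the median deviation of 570 genes with at least 58% GC minus that of 1612 genes with at most 43% GC (log2), WT in grey and KSR23 in red, with replicate numbers beside the points. Apoe and Apoa1 are lowest in the libraries at the left, WT replicate 1 and KSR23 replicate 3, Mttp is highest in KSR23 replicate 3, and Apoc1 separates the groups at every position.

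Of 7 other apolipoprotein genes tested, 2 were lower, beside 8.76% of all genes, and the others did not pass, with a median of -0.41. They were Apoc4, described above, and Apoa2, the second protein of high-density lipoprotein (log2 fold change -1.67, adjusted p = 0.0487). Apoa2 did not pass the quasi-likelihood test (adjusted p = 0.0949) or the corrected fit (-1.07, adjusted p = 0.143), which left 1 of the 7 called in each.

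Of 20 genes of chylomicron assembly and secretion, 2 were lower and 2 higher, shares close to those of all genes (8.76% and 9.73%), and the median log2 fold change was 0.11. Fabp2, which carries fatty acids in enterocytes, fell from a mean of 9964 CPM to 4366 CPM (-1.19, adjusted p = 0.00743), and its liver-type relative Fabp1 from 13908 to 6907 CPM (-1.01, adjusted p = 0.0351). Sec24c (1.20, adjusted p = 0.00295) and Sec23a (0.95, adjusted p = 0.0299), subunits of the coat that buds vesicles from the endoplasmic reticulum, were higher. The calls of Fabp1 and Sec23a were lost by the quasi-likelihood test (adjusted p = 0.0822 and 0.0559), which left 1 lower and 1 higher, and with the correction (-0.43 and 0.65, adjusted p = 0.187 and 0.139), where Pla2g12b was called higher in addition to Sec24c (0.69, adjusted p = 0.0383). P4hb, the partner subunit of Mttp, had a log2 fold change of 0.49 (adjusted p = 0.606). Apobec1 and A1cf, which edit the Apob transcript, had 0.67 (adjusted p = 0.133) and 0.59 (adjusted p = 0.247). In replicates 1 to 3 alone, 0 genes of this list were called by either edgeR test. By the likelihood ratio test 1 was lower (Fabp2) and 2 higher (Sec23a and Sec24c) there at an unadjusted p under 0.05, and by the quasi-likelihood test 1 was higher (Sec24c).

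Of 20 receptors, lipases and cholesterol exporters, 4 were higher and 1 lower, beside 9.73% and 8.76% of all genes, with a median of -0.15. Lipg, endothelial lipase, rose from a mean of 0.503 to 4.01 CPM (log2 fold change 2.99, adjusted p = 5.28e-07), and Lrp8, a receptor that binds apolipoprotein E, rose by 2.23 (adjusted p = 0.000328). Sort1, a sorting receptor of the secretory pathway, rose by 1.18 (adjusted p = 0.00766) and Abca1, which exports cholesterol to apolipoprotein A-I, by 1.08 (adjusted p = 0.00739). With the GC and length correction 2 of the 4 stayed called, and Sort1 (adjusted p = 0.0804) and Abca1 (adjusted p = 0.0843) did not. Angptl8, an inhibitor of lipase activity counted under the symbol Gm6484, was lower (-1.69, adjusted p = 2.75e-07), a call that the correction also lost (-0.997, adjusted p = 0.0916), while Lmf1, a factor for lipase maturation, was called lower there (-0.77, adjusted p = 0.0423). Replicates 1 to 3 alone called 1 of these genes higher by the likelihood ratio test. The quasi-likelihood test called 0 there, with 4 higher and 1 lower at an unadjusted p under 0.05.

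Of 26 transcription factors known to act on apolipoprotein genes, 4 were higher and 2 lower, beside 9.73% and 8.76% of all genes, with a median of 0.12. Nr0b2, the bile acid-induced corepressor SHP, fell from 49.8 to 5.22 CPM (log2 fold change -3.26, adjusted p = 1.96e-22) and Ppargc1a, a coactivator, had -1.38 (adjusted p = 0.000617). Hnf4a, whose product binds the enhancer of Apoc3 (1.08, adjusted p = 0.00281), and its paralog Hnf4g (1.31, adjusted p = 0.00323) were higher, as were Srebf2 (1.81, adjusted p = 0.00901) and Ppard (1.67, adjusted p = 0.000153). With the correction Hnf4a was no longer called (0.81, adjusted p = 0.0611), which left 3 higher. Creb3l3, an activator of Apoa4, had 0.43 (adjusted p = 0.245). Replicates 1 to 3 alone called 1 factor, which was lower.

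**Figure D5:**
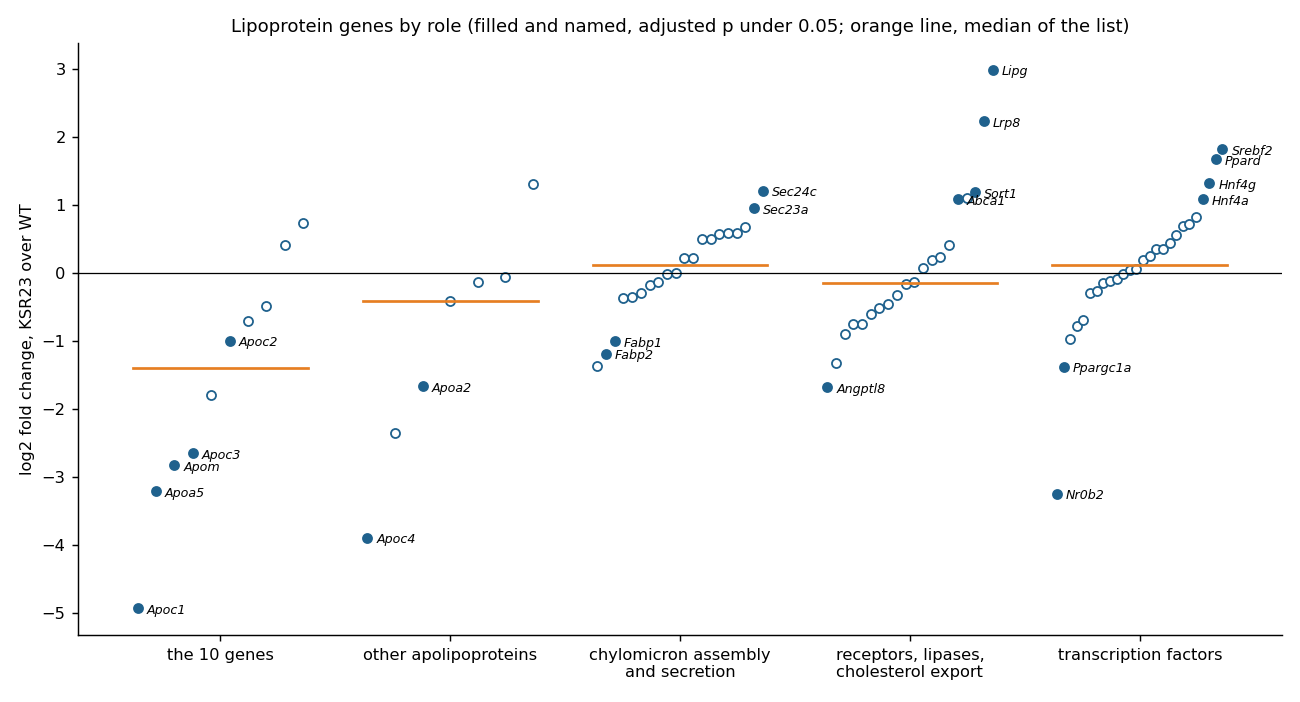
Log2 fold change, KSR23 over WT, of each tested gene in 5 lists, sorted within a list, with the median as an orange line. Filled points passed an adjusted p under 0.05 and are named. The 10 genes hold 5 called points, all below 0, and the receptors and lipases hold 4 above 0 and 1 below.

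Markers of other cell types that express these genes moved as well, and their part in the results was not tested. Their counts stand beside 8.76% of all genes called lower and 9.73% called higher. Apoe and Apoc1 are abundant in macrophages, whose 10 markers summed to 911 to 1102 CPM in WT and 647 to 870 CPM in KSR23. By the likelihood ratio test 3 were lower (C1qb, C1qc and Cd68) and 1 higher (Cd163), against 0 and 0 in replicates 1 to 3 alone. All 3 lower calls were lost with the correction (-0.19, -0.51 and -0.63, adjusted p = 0.733, 0.223 and 0.0868), which called Adgre1 and Cx3cr1 lower instead, and C1qc was also lost by the quasi-likelihood test (adjusted p = 0.0696). Mean levels in WT and KSR23 were 125 and 77.9 CPM for the complement gene C1qb and 88.6 and 44.4 CPM for C1qc. Of 9 liver markers 4 were lower and 3 higher, and they summed to 495 to 1023 CPM in WT and 102 to 160 CPM in KSR23, of which Ttr and Serpina1a made up most in WT (484 and 250 CPM). The 3 higher were Fga (means of 0.472 and 22.7 CPM), Hpx (0.527 and 17.3 CPM) and Fgb (0.510 and 5.68 CPM). Alb, which defines hepatocytes, averaged 1.98 CPM in WT and 0.448 CPM in KSR23. It was called lower by the likelihood ratio test (log2 fold change -2.16, adjusted p = 0.0439) and with the correction (-2.19, adjusted p = 0.0351). The quasi-likelihood test did not call Alb (adjusted p = 0.0938). Of 6 glial markers 1 was lower (S100b) and 1 higher (Erbb3). All 7 pancreatic acinar markers tested were lower, 6 by the quasi-likelihood test (Cpa1 had an adjusted p of 0.0595) and 4 in replicates 1 to 3 alone, and the 9 of the list summed to 101 to 227 CPM in WT and 6.22 to 16.3 CPM in KSR23. The adipocyte genes Adipoq and Lep were at 0 counts in all libraries, and of 2 adipocyte markers tested 1 was lower (Cidec, which enterocytes also express), a call lost with the correction (adjusted p = 0.144).

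Enterocyte markers, which define the labelled tissue, were present in every library. Of 8, 3 were higher (Krt20, Cdh17 and Slc5a1) and 1 lower (Lct), beside 9.73% and 8.76% of all genes. In replicates 1 to 3 alone 1 was higher and 0 lower. The 8 summed to 4215 to 6433 CPM in WT and 8173 to 10699 CPM in KSR23. The higher sum lay mostly in Krt20 (means of 359 and 1674 CPM), Cdh17 (812 and 2283 CPM) and Slc5a1 (904 and 1995 CPM), while the log2 fold change was 0.68 for Vil1 (adjusted p = 0.0889), 0.51 for Anpep (adjusted p = 0.304), -0.12 for Alpi, -0.44 for Epcam and -0.81 for Lct. Slc5a1 was not called with the correction (adjusted p = 0.0511). Lct was not called by the quasi-likelihood test (adjusted p = 0.0627) but stayed called with the correction (-1.12, adjusted p = 0.00279). Of 5 genes of the proximal small intestine 1 passed and was lower (Cybrd1), and of 4 distal genes 1 passed and was higher (Slc10a2, 0 to 9 counts in WT), which was lost by the quasi-likelihood test (adjusted p = 0.0923) and with the correction (adjusted p = 0.0604), where Fabp6 was called higher instead (2.15, adjusted p = 0.0302). Of 5 smooth muscle markers 1 passed and was lower (Acta2), and it was lost by the quasi-likelihood test and with the correction (adjusted p = 0.0538 and 0.0587). The part of these markers in the results was not tested.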

How the data were processed

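RNA of the jejunum was measured in 5 WT and 5 KSR23 libraries, as single-end 75-base reads of amplified, oligo-dT-primed cDNA. The deposited counts are whole reads per gene symbol, not normalized. According to the methods, the authors mapped reads to mm10 with TopHat and counted them over coding genes by strict intersection (TopHat2 2.1.0 and HTSeq 0.6.1p1 in the submitters' notes). The strand setting is not given in the sources used here, and multi-mapped reads (8.62 to 17.1 M per library) entered no gene. Apoa4 shares 56.1% of its 75-base stretches and Apoa5 14.1% with genes on the other strand without counts here, and Mttp 6.04% with genes on the other strand, most of it with Trmt10a, which is counted.

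Counts were scaled by TMM factors and compared by the likelihood ratio test of edgeR 4.0.16 (R 4.3.3), the study's test, for the 17632 genes that reached 5 counts in any library, with the quasi-likelihood F test beside it. Alternatives were DESeq2 1.42.0, relative log expression factors, library totals, other count filters, a replicate block, replicates 1 to 3 alone and leaving out each library. Chosen after seeing the data were the quasi-likelihood test on replicates 1 to 3, the GC and length correction (loess trends per library as offsets) and the ratios to Apoa4 and Apoc2. On simulated counts the likelihood ratio test made more false calls than its threshold states, and the quasi-likelihood test did not. Gene positions are from GENCODE M21 (98.4% of symbols found). Named were the 10 genes, their neighbours, up to 4 called genes per list and direction, and partners; Pla2g12b, Lmf1, C1qb, C1qc, Ttr, Serpina1a, Alb and the other markers named were chosen after their values were seen. The genes and lists were chosen with earlier results of these data known. Of the receptor and lipase list, 2 genes are not reported here, so its counts cover the other 20.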

Additional observations from a re-analysis of the deposited data

Results flagged for a closer look

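Among the 10 genes, 20 groups of 5 values were searched for a library far from the others, and 1 was found, as many as chance gives at 1 in 20. WT replicate 3 had an Apoc1 level of 6.08 on the log2 CPM scale, above the other WT libraries. Without it the log2 fold change of Apoc1 was -4.81.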

How the results depend on the processing

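Apoc1 was called lower in all 20 alternatives (log2 fold change -5.12 to -4.25). Apoc3 (-2.98 to -1.97) and Apom (-3.08 to -2.28) were called lower in 19 of 20 and Apoa5 in 18 of 19 (-4.77 to -2.64), each lost only with the quasi-likelihood test on replicates 1 to 3. Apoa5 was not tested under the filter of 5 or more counts in every library, where 4 of the 10 genes were called lower. Apoc2 was lost in 11 of 20 (-1.30 to -0.34). Apoa1 turned to 0.10 with the GC and length correction, and leaving out 1 library gave -0.73 to 0.030. The count of the 10 genes called lower was 1 with the quasi-likelihood test on replicates 1 to 3 alone, and 4 to 6 when 1 library was left out, where the count called higher was 0 to 1. Over all genes 3261 were called, 579 in replicates 1 to 3, 140 there with the quasi-likelihood test, and 2370 to 3802 when 1 library was left out. The cause was not tested, but fewer libraries enter some of these fits.

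The replicate block left 5 of the 10 genes called lower and 0 higher, and called 2202 genes in all. Replicate numbers come from the sample titles, and deviations of same-numbered libraries correlated at -0.55, 0.25, -0.46, 0.11 and 0.22, so the numbers were not taken as pairs. Depth limits Apoa5 most, since 3 counts are 0.0427 to 0.119 CPM.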
